A study of Mus musculus with 6 samples.

Results

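Prss50, Ly6k, Tex101, Nrip3, Gal and Tktl1 are 6 mouse genes that had been picked out as strong genes of differentiating spermatogonia, and they are described here among the 24973 genes measured in 2 sorted populations of mouse spermatogonia. They were taken by symbol, and all 6 were found, each with 1 value per array. They had been selected on their values in the same contrast, c-kit+ against c-kit- cells, so the differences of these 6 genes are given as a description, without a test. The label described 4 of them, which restates that selection and does not test the label. Prss50, Nrip3, Ly6k and Gal were among the 9 genes with the largest differences towards c-kit+ cells, whereas Tex101 differed less than 2-fold and Tktl1 hardly differed between the populations.

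Testes of FVB/N adults, 2 to 3 months old and not treated, were the source of the cells. Both populations were enriched for α-6 integrin with magnetic beads and sorted as cells that were negative for β-2 microglobulin (β-2M), a marker of somatic cells, and that had the side population (SP) phenotype, the efflux of Hoechst dye. The undifferentiated spermatogonia were those sorted as β-2M-SPα-6+c-kit-, hereafter c-kit- cells. Those sorted as β-2M-SPα-6+c-kit+, hereafter c-kit+ cells, were differentiating. There were 3 samples of 10000 cells per population with 1 mouse per sample, and whether the populations came from the same mice is not stated in the sources used here. RNA was amplified from 500 pg and hybridized to Affymetrix Mouse Gene 2.0 ST arrays, and each value is the log2 signal of a gene after robust multi-array average (RMA). Since the populations were bulk samples, fewer cells with a transcript and less of it per cell cannot be told apart.

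Spermatogonia divide at the base of the seminiferous tubule. Undifferentiated cells, which include the stem cells, give rise to differentiating cells that express the c-kit receptor and then enter meiosis under retinoic acid. PRSS50 belongs to the trypsin-like serine proteases of the testis and is needed for normal sperm tails in mice. LY6K and TEX101 belong to the Ly6/uPAR family of small, cysteine-rich proteins, are held on the germ cell surface by a glycosylphosphatidylinositol (GPI) lipid anchor and bind each other. Male mice without either are infertile, with sperm that lack mature ADAM3 and do not pass into the oviduct. NRIP3 carries a domain like that of retroviral aspartic proteases, and little is known of it in germ cells. Gal encodes galanin, a neuropeptide that acts on 3 G protein-coupled receptors, and Tktl1 is an X-linked relative of transketolase, an enzyme of the pentose phosphate pathway.

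The sequences just upstream of 3 of these genes are shown so that they can be compared by short motifs. Of the 3, Prss50 and Gal had similar differences and Tex101 a smaller one. Ly6k and Nrip3, with differences like those of Prss50 and Gal, had no sequence to compare. RefSeq's table for GRCm38.p6 gave windows for 4 of the 6 genes, Prss50, Tex101, Gal and Tktl1, and the 250 bases before the gene start were searched on both strands for CCAAT (the box bound by NF-Y), GGGCGG (a GC box), TGACGTCA (a cAMP response element), CACGTG (an E-box), CNCCTCAG (a motif reported for STRA8 in mouse) and TATAAA. The motifs do not overlap in the windows shown, and capitals mark the matches. The windows lie at chr9:110857714-110857963 on the plus strand, chr19:3414545-3414794 on the minus strand and chr7:24672051-24672300 on the minus strand.
Prss50: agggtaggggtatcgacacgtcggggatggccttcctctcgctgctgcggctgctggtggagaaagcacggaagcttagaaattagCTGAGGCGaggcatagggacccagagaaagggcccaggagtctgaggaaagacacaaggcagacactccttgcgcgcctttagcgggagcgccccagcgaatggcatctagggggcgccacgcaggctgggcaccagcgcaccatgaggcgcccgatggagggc
Gal: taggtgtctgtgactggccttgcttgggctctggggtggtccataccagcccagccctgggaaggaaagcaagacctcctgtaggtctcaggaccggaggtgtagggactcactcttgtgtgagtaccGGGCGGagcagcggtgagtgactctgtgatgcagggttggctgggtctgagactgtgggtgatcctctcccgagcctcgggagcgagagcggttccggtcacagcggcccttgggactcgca
Tex101: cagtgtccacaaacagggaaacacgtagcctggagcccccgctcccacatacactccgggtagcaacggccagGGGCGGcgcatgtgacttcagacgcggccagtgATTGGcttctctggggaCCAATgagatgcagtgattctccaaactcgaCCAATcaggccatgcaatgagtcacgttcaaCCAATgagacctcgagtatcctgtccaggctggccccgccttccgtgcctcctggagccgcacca
The Prss50 window held 1 match to CNCCTCAG, on the minus strand, 164 to 157 bases before the start, and 6.42% of the 32851 windows in the table held at least 1. Gal had 1 GGGCGG, a motif in 32.7% of windows, and none of the other 5. Tex101 had 4 CCAAT boxes between 144 and 61 bases before the start and 1 GGGCGG further upstream. The CCAAT motif was in 33.8% of windows and 4 or more copies in 0.84%, a count looked up after the Tex101 window was seen. Tktl1 had 2 GGGCGG matches and no other. The Prss50 and Gal windows, of 2 genes with similar differences, thus shared none of the 6 motifs, and a match of letters does not show that a factor binds.

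On the arrays, the sorted populations carried the markers of their labels. Kit was 3.64 higher in c-kit+ cells on the log2 scale and Stra8, which is induced by retinoic acid, 1.87 higher. Of 22 markers of undifferentiated spermatogonia, 19 were lower in c-kit+ cells, with 3 that did not pass the test. Of 12 measured markers of differentiating spermatogonia, 6 were higher and 2 lower. Of 33 genes of early meiosis, 24 were higher and none lower (limma, and none at an unadjusted p under 0.05). The test was limma's moderated test across all genes, called at a Benjamini-Hochberg adjusted p under 0.05, which called 18.1% of all genes, 8.79% as higher and 9.33% as lower in c-kit+ cells. Arrays of one population correlated at 0.986 to 0.992 and arrays of different populations at 0.962 to 0.974 (Pearson's r across genes). Of 17 leukocyte genes 4 were higher in c-kit+ cells. The mean of the 17 was 4.96 to 5.19 over the c-kit- arrays, and among c-kit+ arrays it was 6.15 for replicate 1, 5.91 for replicate 2 and 5.15 for replicate 3. The part of these cells in the results below was not tested. Of 22 spermatid genes 1 was higher in c-kit+ cells, and their mean was between 8.33 and 8.96 on the 6 arrays. The median of all genes was 5.25 to 5.33, so spermatid genes gave strong signals in both populations. The part of spermatid transcripts in the results below, those of sperm genes among them, was not tested.

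The protease gene Prss50 (gene ID 235631, chromosome 9) had the largest difference of the 6. It was at 4.97, 4.92 and 4.82 on c-kit- replicates 1, 2 and 3 and at 7.99, 7.93 and 7.72 on c-kit+ replicates 1, 2 and 3 (log2 values). The populations were far apart, with 2.75 between the highest c-kit- and the lowest c-kit+ array. The mean was 4.90 ± 0.08 in c-kit- samples and 7.88 ± 0.14 in c-kit+ cells (SD, n = 3 each), a difference of 2.98 or 7.87-fold. It ranked 5th of all genes towards c-kit+ cells, between Meioc at 3.16, a gene needed for meiotic prophase, and the pseudogene Olfr1372-ps1 at 2.88. All 3 c-kit- values lay below the median of all genes on their arrays, 5.26 to 5.30. The files give no detection call, so whether any Prss50 transcript was present in c-kit- cells cannot be told from these values.

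Nrip3 (gene ID 78593, chromosome 7) was at 4.68, 5.05 and 5.53 on the c-kit- arrays and at 8.11, 7.79 and 7.95 on the c-kit+ arrays. It varied more among c-kit- samples than any other of the 6 genes, over a range of 0.85, and c-kit- replicate 3 was the highest there. Its means were 5.09 ± 0.43 and 7.95 ± 0.16 (SD, n = 3 each), a difference of 2.86 or 7.27-fold, and rank 7. On c-kit- replicates 1 and 2 it lay below the median of all genes, so its detection there cannot be told.

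The surface protein gene Ly6k (gene ID 76486, chromosome 15) was at 7.90, 7.51 and 7.32 on the c-kit- arrays and at 10.27, 10.60 and 10.12 on the c-kit+ arrays. The populations did not overlap, with a gap of 2.22. The means were 7.58 ± 0.30 and 10.33 ± 0.25 (SD, n = 3 each), a difference of 2.75 or 6.73-fold, and rank 8. In contrast to Prss50, Nrip3 and Gal, the c-kit- values of Ly6k were above the median of all genes on every array.

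Galanin, Gal (gene ID 14419, chromosome 19), was at 4.94, 4.75 and 4.70 on the c-kit- arrays and at 7.77, 7.40 and 7.20 on the c-kit+ arrays. Every c-kit- value was below the array median and every c-kit+ value above it. The means were 4.80 ± 0.13 and 7.45 ± 0.29 (SD, n = 3 each), a difference of 2.65 or 6.29-fold, and rank 9, just above the testis histone gene H2bc1 at 2.64. In all, 30 of the 24973 genes differed by more than 2 towards c-kit+ cells, and these 4 genes were among them.

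Tex101 (gene ID 56746, chromosome 7), the partner of Ly6k on the cell surface, differed much less. It was at 9.57, 10.10 and 10.04 on the c-kit- arrays and at 10.97, 10.87 and 10.63 on the c-kit+ arrays. The populations did not overlap but were only 0.53 apart, and c-kit- replicate 1 was the lowest sample. The means were 9.91 ± 0.29 and 10.82 ± 0.17 (SD, n = 3 each), a difference of 0.92 or 1.89-fold, and rank 496. Ly6k and Tex101, whose proteins form a complex, thus differed by 2.75 and 0.92 between the same samples.

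Tktl1 (gene ID 83553, chromosome X) was at 8.37, 8.62 and 8.53 on the c-kit- arrays and at 8.63, 8.64 and 8.52 on the c-kit+ arrays. The populations overlapped, since c-kit- replicate 2 lay above c-kit+ replicate 3. The means were 8.51 ± 0.12 and 8.59 ± 0.07 (SD, n = 3 each), a difference of 0.09, rank 10450, while the median difference of all genes was 0.04. Tktl1 is therefore not a strong c-kit+ gene on these arrays. For 5 of the 6 genes every c-kit+ array lay above every c-kit- array, as for 19.1% of all genes (15.9% had every c-kit+ array below), a count from the contrast that chose them.

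**Figure D1:**
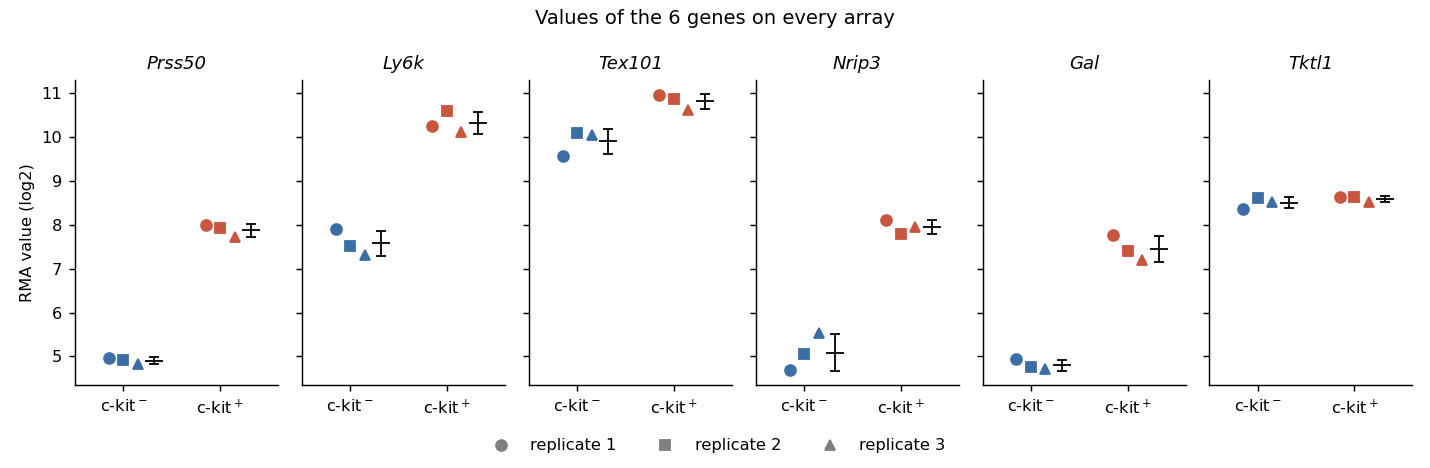
RMA values (log2, vertical axis) of the 6 genes on the 3 c-kit- arrays (blue) and the 3 c-kit+ arrays (red), with a symbol for each replicate and the mean with its SD in black. Prss50, Ly6k, Nrip3 and Gal are 2.65 to 2.98 higher in c-kit+ cells, Tex101 0.92 higher, and the 2 populations overlap for Tktl1.

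**Figure D2:**
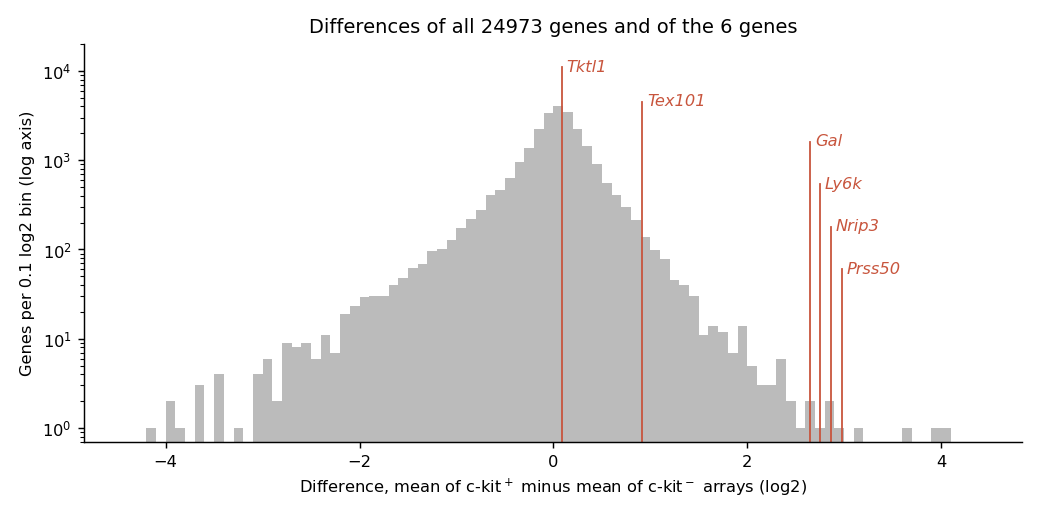
Number of genes (vertical log axis) by difference between c-kit+ and c-kit- means (log2, horizontal axis, bins of 0.1), for all 24973 genes in grey with the 6 genes as red lines, whose heights only space the names. Gal, Ly6k, Nrip3 and Prss50 lie in the right tail, where 30 genes exceed 2, and Tktl1 lies at the peak.

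The order of the samples within a population was shared by some of the 6 genes. Among the c-kit- samples, replicate 1 was the highest for Prss50, Ly6k and Gal and the lowest for Nrip3, Tex101 and Tktl1. Among the c-kit+ samples, replicate 3 was the lowest for 5 genes, all but Nrip3, which was lowest in replicate 2. The leukocyte genes were also lower on c-kit+ replicate 3 than on replicates 1 and 2. With replicate 3 as the only c-kit+ array, the difference was 2.81 for Prss50, 2.86 for Nrip3, 2.54 for Ly6k, 2.40 for Gal, 0.73 for Tex101 and 0.01 for Tktl1. The order of the 6 changed only in that Nrip3 passed Prss50.

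The profiles were compared by the root mean square difference over the 6 arrays after each gene was centred on its own mean. Within the set, Prss50 and Gal were closest, at 0.20, followed by Prss50 and Ly6k at 0.21. Among all other genes, Meioc was nearest to Prss50 (0.15), ahead of Esx1 (0.30), an X-linked homeobox gene, and H2bc1 (0.31). Meioc was also nearest to Nrip3 (0.32), with Ppp4r4 (0.33) and Esx1 (0.38) next. Meioc itself was at 6.93, 7.08 and 7.06 on the c-kit- arrays and at 10.38, 10.32 and 9.87 on the c-kit+ arrays. For Gal, the nearest were Esx1 (0.16), 1700013H16Rik (0.18) and Cpne2 (0.24), and for Ly6k they were Emc7 (0.20), H2bc1 (0.22) and 1700013H16Rik (0.24). These values describe likeness in size and shape over samples of 2 populations, and the few genes with differences this large had few others to be like. Tex101 was closest to Synj1 (0.05), Nkd2 (0.06) and Pomt2 (0.06), and Tktl1 to Abhd17b, Elf3 and Pax9 (0.02 each).

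No relative of Prss50 passed as higher in the unpaired limma fit of all genes. Of 42 other measured Prss genes and close serine proteases, none passed as higher in c-kit+ cells by limma (8.79% of all genes did), 1 passed as lower, and 41 passed in neither direction. At an unadjusted p under 0.05, 4 were higher and 2 were lower, and the per-gene test that the methods name, with the same adjustment, called 0 higher and 1 lower. Limma called 1 as higher when only genes above the median gene were fitted, and also without c-kit- replicate 1 or c-kit+ replicate 3. Of the 42 genes, 16 lay above the median gene, and 17.8% of all such genes were called higher. Prss48 was the lower one, at 7.20, 7.14 and 7.15 in c-kit- samples and 6.85, 6.84 and 6.77 in c-kit+ cells (difference -0.34, adjusted p = 0.0446 from limma), and it passed in none of the 6 fits that left out 1 array (adjusted p = 0.0857 to 0.140 from limma). The differences of the 42 genes ran from -0.55 to 0.48, with a median of 0.11 against 0.04 for all genes. The genes Prss42, Prss44, Prss43, Prss45 and Prss46 lie next to Prss50 on chromosome 9, and their differences were between -0.12 and 0.28, with none passing.

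Most of the Ly6/uPAR family, to which Ly6k and Tex101 belong, did not pass. Of 56 other measured members, 2 passed as higher and 4 as lower in c-kit+ cells and 50 in neither direction, a share of 10.7% called against 18.1% of all genes. Most gave weak signals, with 13 of 56 above the median gene. In a fit of genes above the median gene, 5 of these 13 were called, against 36.1% of all such genes. Lynx1, whose protein binds nicotinic acetylcholine receptors, was at 6.20, 6.70 and 6.16 in c-kit- samples and 7.63, 7.52 and 7.64 in c-kit+ cells (difference 1.24, standard error 0.16, adjusted p = 0.00116 from limma). It lies 3 measured genes from Ly6k on chromosome 15. Slurp1, a secreted member, was higher by 0.41 (adjusted p = 0.0470 from limma) but kept the call only without c-kit- replicate 1 among the 6 fits without 1 array, with an adjusted p up to 0.147 from limma. All values of Slurp1 lay below the median of all genes, so that its detection cannot be told. The lower members were Ly6g6e at 6.67 ± 0.51 against 5.40 ± 0.21, Lypd6, which acts on WNT signaling, at 7.12 ± 0.40 against 5.97 ± 0.19, Ly6g6d at 5.67 ± 0.30 against 4.83 ± 0.15 and Lypd9 at 7.21 ± 0.33 against 6.48 ± 0.09 (SD, n = 3 each, c-kit- against c-kit+). Their adjusted p ran from 0.00533 for Lypd6 to 0.0165 for Lypd9 (limma). Every c-kit+ value of Ly6g6d, and that of Ly6g6e on c-kit+ replicate 1, lay below the median of all genes, so that detection cannot be told there. Lypd9 lost the call in the fits without c-kit+ replicate 1 or 3 (adjusted p up to 0.0586 from limma).

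Genes listed for the sperm pathway of TEX101 and LY6K mostly did not pass. The list also holds chaperones and processing enzymes. Of its 25 genes, 3 passed as higher in c-kit+ cells, none as lower and 22 in neither direction by limma (12% called, against 18.1% of all genes). Of the 25, 18 lay above the median gene, and a fit of such genes called 4 of these 18, against 36.1% of all. At an unadjusted p under 0.05, 4 of the 25 were higher and 2 were lower. The methods' test, with the same adjustment, called 1 higher and 1 lower. Dpep3, a GPI-anchored dipeptidase of the testis that binds TEX101, was at 7.79, 7.36 and 7.21 in c-kit- samples and 8.38, 8.47 and 8.24 in c-kit+ cells. Its difference of 0.91 (standard error 0.16, adjusted p = 0.00559 from limma) was as large as that of Tex101. Calr and Canx, chaperones of the endoplasmic reticulum that most cells use, were higher by 0.53 and 0.54 (adjusted p = 0.0143 and 0.00680 from limma). Calr did not pass without c-kit+ replicate 1 (adjusted p = 0.0564 from limma). Their testis counterparts Calr3 and Clgn, which ADAM3 needs, differed by 0.01 and 0.13 and did not pass (both picked out after their values were seen). Adam3 itself was at 7.19, 7.42 and 7.98 in c-kit- samples and 7.67, 7.39 and 7.94 in c-kit+ cells, with overlapping samples (adjusted p = 0.745 from limma). Ace, whose testis form sheds TEX101 from sperm, was at 7.29 ± 0.31 and 7.44 ± 0.10 (SD, n = 3 each, adjusted p = 0.606 from limma).

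Genes that build the GPI anchor, the lipid that holds LY6K and TEX101 at the surface, were more often higher. Of 34 measured genes of this pathway, 12 passed as higher and 2 as lower in c-kit+ cells and 20 in neither direction, which is 35.3% higher against 8.79% of all genes. The methods' test, with the same adjustment, called 5 as higher and 1 as lower. With the replicate number as a block, limma called 9 of the 34 in either direction. These genes gave stronger signals than most, with 31 of 34 above the median gene, and in a fit of genes above the median gene 36.1% were called and 17.8% called higher, against 15 and 13 of these 31. Gpaa1, a subunit of the transamidase that attaches the anchor, was at 6.48, 6.98 and 6.59 in c-kit- samples and 7.49, 7.72 and 7.38 in c-kit+ cells (difference 0.85, standard error 0.16, adjusted p = 0.00726 from limma). Its fellow subunit Pigk was higher by 0.70 (adjusted p = 0.00362 from limma). Pigyl and Pigp, of the complex for the first step, were higher by 0.74 and 0.65 (adjusted p = 0.00448 and 0.00579 from limma).

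By step of the pathway, a grouping made after the values were seen, 4 of 5 transamidase subunits, 4 of 7 genes of the first step and 3 of 4 ethanolamine phosphate transferase genes were higher. Pigt was the transamidase subunit that did not pass, at 0.37 (adjusted p = 0.0765 from limma). Of 8 genes for the addition of mannose, Pigm was higher by 0.43 and Pigx and Dpm3 were lower (-0.66 and -0.62), although Pigm and Pigx form 1 enzyme. The adjusted p was 0.0125 for Pigx and 0.0427 for Dpm3 (limma). None of 6 genes for remodelling after attachment passed by limma (differences from -0.27 to 0.40). The count of 14 called genes was 7 to 9 when 1 array was left out, whichever array it was (7 without c-kit- replicate 1 or c-kit+ replicate 1, 8 without c-kit- replicate 3 or c-kit+ replicate 2, 9 without c-kit- replicate 2 or c-kit+ replicate 3). Gpaa1, Pigyl, Pigk, Pigp and Pigx passed in all 6 of these fits, and Dpm3 in 1, that without c-kit- replicate 3 (adjusted p up to 0.138 from limma in the others).

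**Figure D3:**
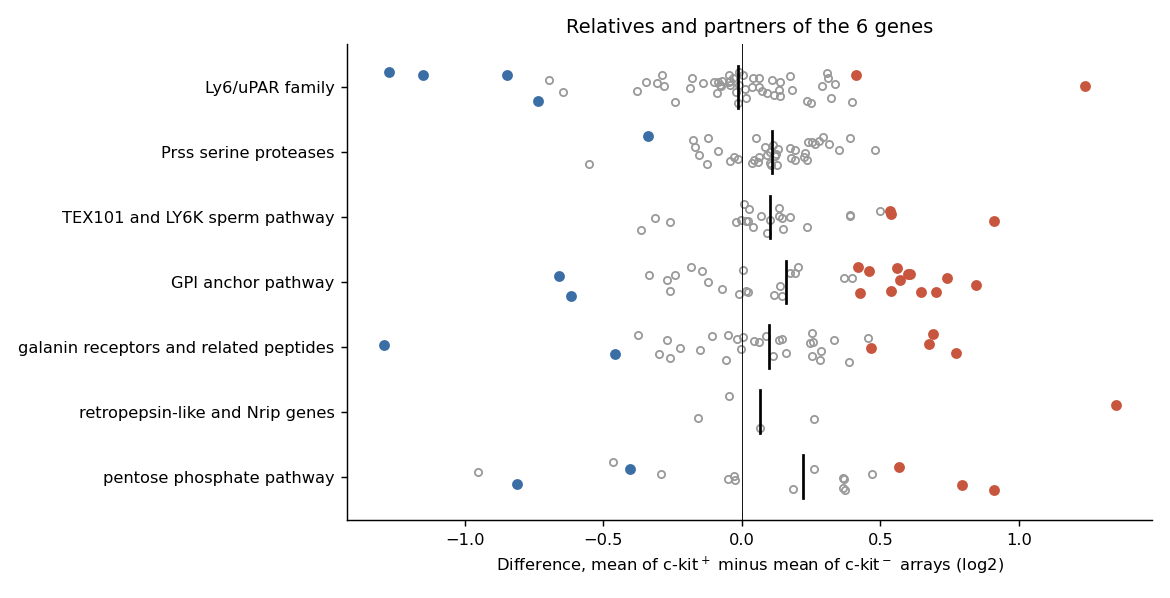
Difference between c-kit+ and c-kit- means (log2, horizontal axis) of each measured gene in 7 lists of relatives and partners, with the 6 genes themselves left out. Filled points passed limma's test (red higher, blue lower in c-kit+ cells), open points did not, and black bars are medians, from -0.01 for the Ly6/uPAR family to 0.22 for the pentose phosphate pathway.

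**Figure D4:**
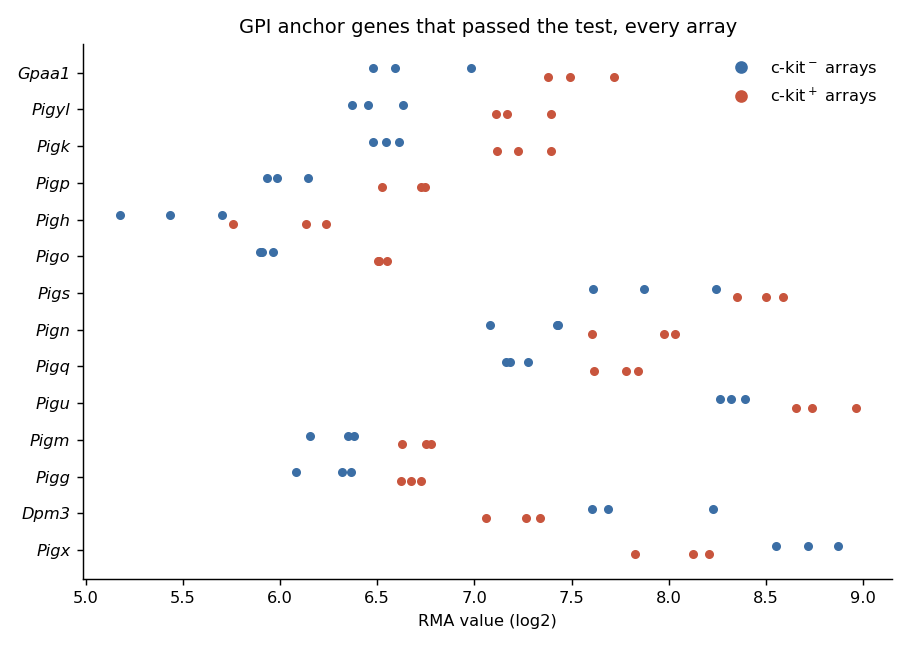
RMA values (log2, horizontal axis) of the 14 GPI anchor genes that passed the test, on the 3 c-kit- arrays (blue) and the 3 c-kit+ arrays (red). The 12 genes from Gpaa1 to Pigg have all red points to the right of the blue ones, and Dpm3 and Pigx have them to the left.

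The nuclear receptor corepressor gene Nrip1, which shares its name but not its retropepsin-like domain with Nrip3, was the only 1 of 5 related genes to pass, a share of 20% against 18.1% of all genes. It was at 5.55, 5.36 and 5.43 in c-kit- samples and 7.03, 6.85 and 6.51 in c-kit+ cells (difference 1.35, standard error 0.15, adjusted p = 0.000588 from limma), and it passed in all 6 fits without 1 array. Nrip2, the closer relative of Nrip3, was at 5.18 ± 0.13 and 5.43 ± 0.13 (SD, n = 3 each, adjusted p = 0.193 from limma). Ddi1, Ddi2 and Asprv1, which also encode retropepsin-like domains, did not pass, at 0.07, -0.16 and -0.05.

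Of the 3 galanin receptors, Galr3 was higher in the cells with higher Gal. It was at 5.87, 5.34 and 5.45 in c-kit- samples and 6.45, 6.04 and 6.23 in c-kit+ cells (difference 0.69, standard error 0.17, adjusted p = 0.0240 from limma). Galr3 passed in 2 of 6 fits without 1 array, those without c-kit- replicate 1 or c-kit+ replicate 2, and reached an adjusted p of 0.0846 (limma) in the others. Galr2 was at 3.97 ± 0.18 and 4.36 ± 0.09 (SD, n = 3 each, adjusted p = 0.0652 from limma) and Galr1 at 5.00 ± 0.10 and 5.08 ± 0.29 (SD, n = 3 each, adjusted p = 0.773 from limma). All values of Galr2 and all but 1 of Galr1 lay below the median of all genes, so that detection cannot be told for them.

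Of 34 galanin receptor and neuropeptide genes in all, 4 passed as higher, 2 as lower and 28 in neither direction, a share of 17.6% called against 18.1% of all genes. Most gave weak signals, with 10 of 34 above the median gene. In a fit of genes above the median gene, 6 of these 10 were called, against 36.1% of all such genes. Besides Galr3, those higher in the fit of all genes were Nppc, the gene of C-type natriuretic peptide (0.77), the kisspeptin receptor gene Kiss1r (0.68) and Nmu (0.46). All values of Nmu and the c-kit- values of Kiss1r lay below the median of all genes, so that detection cannot be told there. Cartpt, another neuropeptide gene, was lower, at 8.12 ± 0.46 in c-kit- samples and 6.83 ± 0.43 in c-kit+ cells (SD, n = 3 each, adjusted p = 0.0119 from limma). Pam, the enzyme that amidates peptides such as galanin, was lower by 0.46 on the log2 scale (adjusted p = 0.0364 from limma, and up to 0.111 without 1 array, passing only without c-kit- replicate 3). Cartpt and Nppc passed in all 6 of those fits. Kiss1r lost the call without c-kit- replicate 1, c-kit+ replicate 1 or c-kit+ replicate 3 (adjusted p up to 0.0730 from limma), and Nmu without replicate 2 or 3 of either population (up to 0.0760 from limma). The count of 6 called genes was 3 without c-kit- replicate 2, c-kit+ replicate 1 or c-kit+ replicate 3 and 4 without any other array.

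Of the transketolase genes other than Tktl1, only Tkt passed. Tkt, the enzyme of the pathway in most tissues, was lower in c-kit+ cells, at 5.10, 5.57 and 5.49 against 5.86, 6.40 and 6.34 (difference -0.81, standard error 0.18, adjusted p = 0.0168 from limma). The call was lost in 3 of 6 fits, which lacked c-kit+ replicate 1, c-kit- replicate 2 and c-kit- replicate 3 (adjusted p up to 0.0573 from limma). Tktl2 was at 3.22 ± 0.07 and 3.59 ± 0.13 (SD, n = 3 each, adjusted p = 0.0563 from limma), low values on every array. Taldo1, the transaldolase gene, was at 8.87 ± 0.11 and 8.57 ± 0.07 (SD, n = 3 each, adjusted p = 0.103 from limma).

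Of 18 other genes of the pentose phosphate pathway and its products, 3 passed as higher and 2 as lower in c-kit+ cells and 13 in neither direction (27.8% called, against 18.1% of all genes). These genes gave stronger signals than most, with 13 of 18 above the median gene. In a fit of genes above the median gene, 6 of these 13 were called, against 36.1% of all such genes. The epimerase gene Rpe was at 6.41 ± 0.04 and 7.20 ± 0.04 and the deoxyribose-phosphate aldolase gene Dera at 6.68 ± 0.09 and 7.59 ± 0.10 (SD, n = 3 each, c-kit- and c-kit+, adjusted p = 0.00105 and 0.000930 from limma). Both passed in all 6 fits without 1 array. Prps1, for the synthesis of phosphoribosyl pyrophosphate, was higher by 0.57 and passed only without c-kit- replicate 1 (adjusted p up to 0.111 from limma in the others). The lactonase gene Pgls was lower, at -0.40, and passed in none (adjusted p = 0.0536 to 0.0967 from limma). The count of 5 called genes was 2 without c-kit- replicate 2, 5 without c-kit- replicate 1 and 3 without any other array. G6pdx, the X-linked gene of the first enzyme, was picked out after its values were seen. It was at 7.55, 8.06 and 8.08 in c-kit- samples and 7.62, 6.42 and 6.78 in c-kit+ cells, where replicate 1 overlapped with c-kit- cells (adjusted p = 0.0559 from limma).

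**Figure D5:**
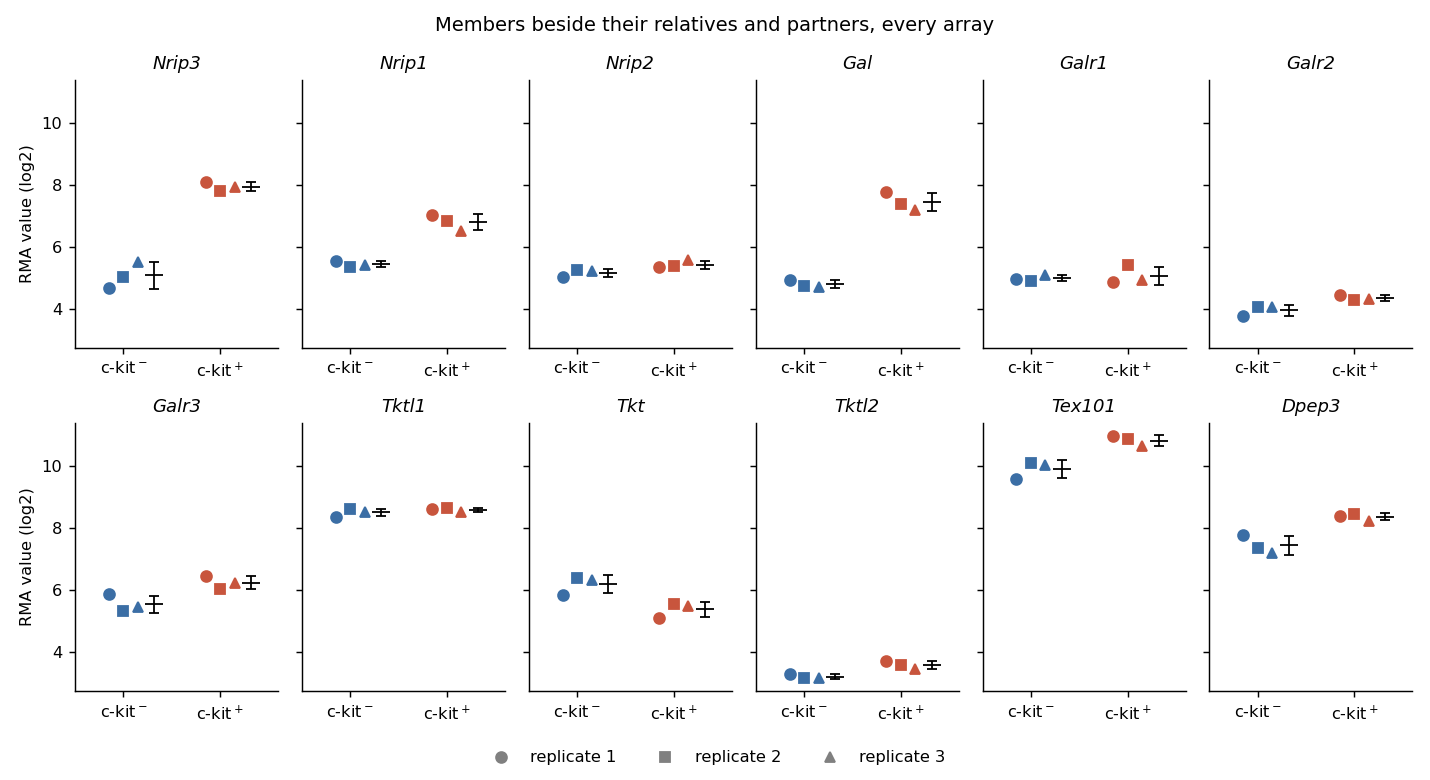
RMA values (log2, vertical axis) of Nrip3, Gal, Tktl1 and Tex101 beside relatives and partners, on the 3 c-kit- arrays (blue) and 3 c-kit+ arrays (red), with a symbol for each replicate and the mean with its SD in black. Nrip1, Galr3 and Dpep3 are 0.69 to 1.35 higher in c-kit+ cells, Tkt is 0.81 lower, and Tktl1 overlaps.

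The genes next to the 6 on their chromosomes were compared to see whether whole regions moved. Of the 60 measured neighbours, 5 on each side of each gene in the order of GRCm38.p6, 8 passed as higher and 1 as lower in c-kit+ cells and 51 in neither direction (15% called, against 18.1% of all genes). None of the 10 neighbours of Prss50 or of Tex101 passed by limma (unadjusted p under 0.05 for 3 and 2 of them, and 0 by the methods' test), and 1 of Ly6k did, Lynx1. Around Gal, 5 of 10 passed, all higher: Tesmin, a testis gene of meiotic cells, by 0.99, Lrp5, a WNT co-receptor, by 0.67, the choline kinase gene Chka by 0.62, Ppp6r3 by 0.55 and 1810055G02Rik by 0.45. The methods' test, with the same adjustment, called 1 of these 10 neighbours as higher. All 5 that passed by limma lay above the median gene, and in a fit of such genes 17.8% were called higher. Tesmin, Lrp5 and Chka passed in all 6 fits without 1 array. Ppp6r3 lost the call without c-kit+ replicate 1 or 2 (adjusted p up to 0.0658 from limma), and 1810055G02Rik passed only without c-kit- replicate 2 (up to 0.0956 from limma in the others). Tesmin lies directly beside Gal and was at 5.49, 5.75 and 5.94 in c-kit- samples and 6.66, 6.98 and 6.51 in c-kit+ cells (adjusted p = 0.00405 from limma). Beside Nrip3, Scube2, a secreted protein of Hedgehog signaling, was at 5.02 ± 0.10 and 6.49 ± 0.11 (SD, n = 3 each, adjusted p = 0.000112 from limma), and the importin gene Ipo7, on the same side, was higher by 0.92 (adjusted p = 0.000863 from limma). The filamin gene Flna, next to Tktl1, was lower by 0.60 on the log2 scale (adjusted p = 0.00420 from limma).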

How the data were processed

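RNA of c-kit- and c-kit+ spermatogonia was measured on 6 arrays, 3 per population. The authors normalized the arrays by RMA in R and Bioconductor (background correction, quantile normalization between arrays, summary of the probes of a gene) and deposited log2 values. RMA compresses weak signals, so differences of genes with low values can be understated. The version and the probe set definition are not given in the sources used here. The table held 24973 genes by Entrez ID, without missing values, from 2.03 to 12.97. Names came from RefSeq's table for GRCm38.p6 (24481 genes) and the platform's table (93), and 399 genes had none.

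limma 3.58.1 (R 4.3.3; lmFit, eBayes) was fitted to every gene (c-kit+ against c-kit-, unpaired, two-sided) with Benjamini-Hochberg adjustment over all genes and no filter. The methods name an ANOVA per gene, which was run as an alternative with the same adjustment and threshold. The study's mouse lists used other cutoffs, on p and fold change, so the counts given for this test are not the study's. With 3 arrays per group, an exact permutation test allows no p below 0.1. The p-values set each difference against the spread between these samples, with variance shared across genes. The parts of mouse, sort and amplification in that spread cannot be told apart. The number of arrays limits the precision. Differences are c-kit+ minus c-kit-. The procedure was tested on simulated data.

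The 6 genes and the gene lists were chosen with earlier results of these data known. Named were the 6 genes, fixed partners (Galr1, Galr2, Galr3, Tkt, Tktl2, Taldo1, Nrip1, Nrip2, Adam3, Dpep3 and Ace), up to 4 called genes per list and direction, called neighbours, the 3 genes most alike in profile, the genes next in rank, Kit and Stra8, with others named after their values were seen. Lists of Sertoli, Leydig, peritubular myoid and endothelial cells were also counted. Of 14 measured Sertoli genes, 1 was lower in c-kit+ cells, of 8 Leydig genes none passed (limma; none at an unadjusted p under 0.05), of 8 peritubular myoid genes 2 were higher (25%) and 1 was lower (12.5%), and of 10 endothelial genes 4 were lower (40%), against 8.79% of all genes higher and 9.33% lower. Alternatives covered the scaling, a filter on low values, the variance prior, the ANOVA, the replicate number as a block and arrays left out.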

Additional observations from a re-analysis of the deposited data

How the results depend on the processing

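Over the 3 other scalings (a further quantile normalization, arrays set to one median, cyclic loess) the difference was 2.94 to 2.97 for Prss50, 2.83 to 2.85 for Nrip3, 2.74 to 2.78 for Ly6k, 2.62 to 2.64 for Gal, 0.91 to 0.96 for Tex101 and 0.07 to 0.09 for Tktl1. With 1 array left out, it was 2.92 to 3.06, 2.66 to 3.09, 2.62 to 2.91, 2.50 to 2.78, 0.75 to 1.02 and 0.02 to 0.14 in the same order. Without c-kit+ replicates 1 and 2 together it moved by more than the SD pooled over both populations for Prss50 (2.81) and Gal (2.40).

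The counts of called genes depended on more. The ANOVA called 2512 genes in all against 4527, and 3 of the Ly6/uPAR family, 6 GPI anchor genes, 2 galanin and neuropeptide genes, 3 pentose phosphate genes and 5 neighbours. With 1 c-kit+ array, replicate 3, limma called 766 genes in all, 2 neighbours and no gene of the Ly6/uPAR, Prss, TEX101 and LY6K, GPI anchor, galanin or pentose phosphate lists. The lone array was then assumed to vary like the c-kit- arrays, and fewer samples entered the fit. The count of Prss genes, 1, was 0 with a further quantile normalization or the trend and robust prior, and 2 with cyclic loess or among genes above the median. With 1 array left out, the counts were 3224 to 4084 in all, 4 to 6 for the Ly6/uPAR family, 0 to 2 for Prss genes, 7 to 9 for GPI anchor genes, 3 to 4 for galanin and neuropeptides and 2 to 5 for the pentose phosphate pathway. Over these fits the neighbours numbered 7 to 11. The TEX101 and LY6K list stayed at 3 and the Nrip list at 1.

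The replicate numbers were not taken to pair the samples, because the sources used here do not say that a number marks a shared mouse. The correlations of same-numbered arrays' deviations were 0.0999, 0.0973 and 0.137. With the replicate number as a block, 4513 genes were called in all and 9 of the GPI anchor list (7 higher), in place of 14 (12 higher), and the 1 Prss gene called was higher. Each number's correlation was above those with the other numbers, a hint from the data and not from the design.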
